A study of Mus musculus with 14 samples.

Results

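Calpains are a family of cysteine proteases, and 10 mouse calpain genes were measured here in beta-cell lines with altered Sirt1, each by 1 array probe. The 10 probes were taken by gene symbol from 23232 probes on the array, of which 16885 had a single gene symbol. The family was chosen by the measured ratios of Capn9, whose probe passed the threshold in all 4 lines, so the values of Capn9 are given as a description with no test. The other 9 genes came in as members of its family, and the measured calpains Capn8 and Capn15 were not among them.

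The cells were MIN6, an insulin-making mouse beta-cell line grown in culture. Each of 14 arrays held the RNA of a line derived from MIN6 and of that line's control in separate channels. Sir2OE1 (3 arrays) and Sir2OE2 (4 arrays) overexpressed mouse Sirt1 from the retrovirus pBabe-Sirt1, which also carries neomycin resistance, and were set against pooled RNA of Neo1 and Neo2, infected with the empty virus pBabe-neo. Sir2KD1 (3 arrays) and Sir2KD2 (4 arrays) had Sirt1 lowered by small interfering RNAs from mU6pro vectors, transfected together with a neomycin resistance plasmid, and were set against the empty-vector line mU6pro. All were derived from MIN6 at passage 24 and held for 4 days in 5 mM glucose, after selection in G418 at 280 micrograms per ml for overexpression and 400 micrograms per ml for knockdown. Delivery, selection dose and control RNA therefore differed between the kinds and cannot be told apart from the Sirt1 change in any comparison across them.

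The lines of a kind shared their control RNA, and nothing in the labels says that arrays of the same line came from different cultures, so the errors given here are those of array to array spread, perhaps technical only. A ratio against a control gives no level, so the beta-cell identity of the lines could not be checked, and fewer cells of a type cannot be told apart from less RNA per cell.

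Calpains cut a limited number of sites in their substrates, which changes the activity or place of a protein more often than it destroys it. The classical members, Capn1 and Capn2, need calcium and pair with a small regulatory subunit, Capns1, and the inhibitor calpastatin, from Cast, holds them in check. In beta cells calpain activity has been tied to insulin secretion and exocytosis, and the gene for calpain 10 became known through genetic studies of type 2 diabetes.

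Which channel the deposited ratios put on top is not given in the sources. Channel 2 was assumed to be on top throughout, and the sign was turned wherever a line was hybridised in channel 1. After the turn a value on the plus side means more signal from the line if channel 2 is on top and less if channel 1 is. Values are therefore called plus or minus, and never higher or lower in a line. The Sirt1 probe does not settle the matter: its fitted log2 ratios were 0.08 in Sir2OE1, -0.33 in Sir2OE2, -0.10 in Sir2KD1 and 0.13 in Sir2KD2, with standard errors of 0.10 to 0.12, and none passed the threshold (limma adjusted p from 0.131 to 0.933). The place of that probe in the transcript was not known.

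The promoters shown are those of Capn9, by which the family was chosen, and of Capn1, whose difference between the kinds only just passed. Each is the 250 bases before the gene's start from the RefSeq table of build GRCm38.p6, printed 5′ to 3′ on the gene's strand, with CG dinucleotides in capitals. Capn9 lies on the plus strand at chr8:124575861-124576110, and Capn1, for the first of its 2 listed starts, on the minus strand at chr19:6015826-6016075.
Capn9: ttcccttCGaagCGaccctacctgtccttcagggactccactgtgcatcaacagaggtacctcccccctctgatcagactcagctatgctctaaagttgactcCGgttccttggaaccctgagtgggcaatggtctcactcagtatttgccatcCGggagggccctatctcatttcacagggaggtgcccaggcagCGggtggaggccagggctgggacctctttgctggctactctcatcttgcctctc
Capn1: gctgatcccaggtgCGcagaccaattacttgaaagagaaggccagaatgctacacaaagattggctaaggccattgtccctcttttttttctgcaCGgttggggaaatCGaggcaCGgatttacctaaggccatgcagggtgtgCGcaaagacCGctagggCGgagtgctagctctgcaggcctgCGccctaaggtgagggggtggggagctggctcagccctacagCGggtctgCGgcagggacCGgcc

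The 9 members with a promoter in that table had 11 promoters among them, and these differed widely in CG content; Capn5 had none. Capn2 held 19 CG dinucleotides, Capn7 held 18, Capn10 held 16, and both starts of Capn1 held 11. Capn12 held 8, Capn9 and Capn6 held 5 each, the starts of Capn3 held 4 and 3, and Capn11 held 3. Over all 32851 promoters of the table the median was 6, and 49.65% held no more than the 5 of Capn9. The letters TATAAA, searched on both strands, occurred in 0 of the 11 calpain promoters and in 12.37% of all promoters, which says only that these letters are not in these windows.

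Capn9, a calpain best known from the lining of the stomach and gut, had the largest ratios of the family in Sir2OE1 and in both knockdown lines. Undoing the authors' centring gives whole-number percent ratios for each array, the smallest that fit. A factor common to a probe's arrays of a kind stays unknown, so the place of a ratio relative to 100% holds if that factor is 1, while ratios between arrays of a kind do not depend on it. With the line in channel 2 the recovered Capn9 ratio was 41% and 30% on the arrays of Sir2OE1 and 77% and 48% on those of Sir2OE2. With the line in channel 1 it was 234% in Sir2OE1 and 158% and 137% in Sir2OE2. The 7 overexpression arrays thus lay below 100% with the line in channel 2 and above it with the line in channel 1.

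In the knockdown lines the sides were the other way round. With the line in channel 2 the ratio was 191% in Sir2KD1 and 231% and 209% in Sir2KD2. With the line in channel 1 it was 46% and 54% in Sir2KD1 and 52% and 56% in Sir2KD2. For the same channel, then, the overexpression and knockdown arrays lay on opposite sides of 100%. Because Capn9 came into view through the turned values, these sides say nothing about whether the turn is right.

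**Figure D1:**
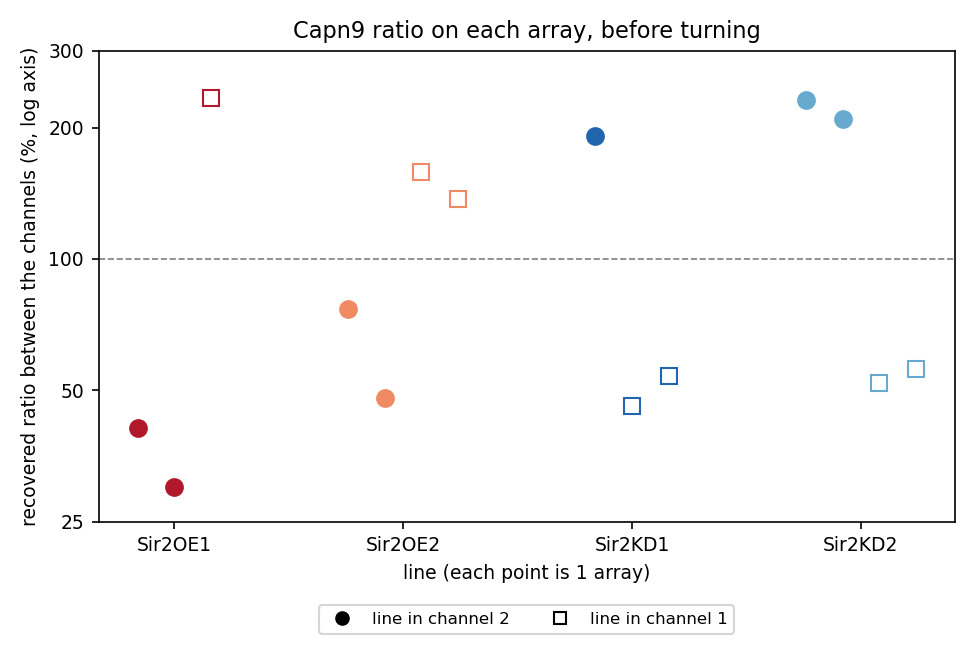
The recovered ratio of the Capn9 probe is plotted for each of 14 arrays as a percent on a log axis, by line, with filled circles where the line was in channel 2 and open squares where it was in channel 1. Filled circles lie below 100% in the overexpressing lines (30% to 77%) and above it in the knockdown lines (191% to 231%), and open squares lie on the opposite side in each.

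On the turned log2 scale, after a channel term, the Capn9 arrays of Sir2OE1 stood at -1.18, -1.63 and -1.33. Those of Sir2OE2 stood at -0.27, -0.95, -0.77 and -0.56. Those of Sir2KD1 stood at 0.87, 1.18 and 0.95, and those of Sir2KD2 at 1.15, 1.00, 1.00 and 0.90. All 7 overexpression arrays were minus, all 7 knockdown arrays were plus, and the kinds did not overlap. Capn9 was chosen by these ratios, and the share of all probes whose kinds do not overlap was not counted. Within the overexpressing lines every Sir2OE1 array was further from 0 than every Sir2OE2 array, while the knockdown lines overlapped.

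The fitted Capn9 log2 ratio was -1.38 ± 0.16 (SE, n = 3) in Sir2OE1, a 2.61-fold ratio, and -0.64 ± 0.13 (SE, n = 4) in Sir2OE2, a 1.56-fold ratio. In Sir2KD1 it was 1.00 ± 0.16 (SE, n = 3) and in Sir2KD2 1.01 ± 0.13 (SE, n = 4), near 2-fold in both. Sir2OE2 minus Sir2OE1 came to 0.74 ± 0.20 and Sir2KD2 minus Sir2KD1 to 0.01 ± 0.20. The knockdown lines thus gave almost the same value from separate hybridizations against a common control RNA. Overexpression minus knockdown was -2.02 ± 0.14 on the log2 scale, a 4.05-fold ratio. If the knockdown arrays have the other channel on top, that difference becomes -0.003, since the kinds would then share their side with like mean size.

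With the same factor of 1, Capn9 kept its side within each channel orientation. The turned ratios averaged -1.51 with the line in channel 2 and -1.23 with it in channel 1 in Sir2OE1, and -0.72 and -0.56 in Sir2OE2. In Sir2KD1 they averaged 0.93 and 1.00, and in Sir2KD2 1.14 and 0.89. The channel offset that the centring had removed was small, at -0.06 for overexpression and 0.09 for knockdown on the log2 scale.

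Capn9 was the 1 member of 10 that passed the threshold in each line, a limma p adjusted by the Benjamini-Hochberg method over all 23230 probes tested under 0.05. In Sir2OE1 1.06% of all probes passed, in Sir2OE2 2.81%, in Sir2KD1 3.59% and in Sir2KD2 1.34%. Since Capn9 was in view when the family was picked, nothing is read from these counts. Without slide 3 of Sir2OE1 the Capn9 value there was -1.43 and no longer passed. In Sir2OE2 it no longer passed without slide 2 (-0.51), slide 3 (-0.58) or slide 4 (-0.67), each time still minus.

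Capn8, the other gastric calpain and a partner of Capn9 in the stomach, is no member of the set. Its fitted log2 ratios were -0.11 and -0.14 in Sir2OE1 and Sir2OE2 and 0.03 and 0.02 in Sir2KD1 and Sir2KD2. The standard errors were 0.32 to 0.38, and it did not pass in any line. Its corrected Sir2KD2 arrays ran from -0.99 to 1.12 (SD 1.08), so the value near 0 there averages arrays that lay far apart.

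Markers of stomach and intestine epithelium, where Capn9 is usually found, were measured by 14 probes for 11 of the 12 listed genes. In Sir2OE1 0 passed, against 1.06% of all probes, with 2 at an unadjusted p under 0.05 in limma, where 2232 of 23230 probes had such a p. In Sir2OE2 1 passed, against 2.81% of all probes: Tff3, a trefoil peptide of mucous cells, on the plus side (0.64). In Sir2KD1 2 passed, against 3.59%, both on the minus side: Tff3 (-0.85) and Muc6, a gastric mucin (-0.65). In Sir2KD2 0 passed, against 1.34%, with 2 at an unadjusted p under 0.05 in limma, where 3102 of 23230 probes had such a p. These calls lay on the sides opposite to Capn9 in their lines. In Sir2OE1, however, Tff3 was minus like Capn9 (-0.76, limma adjusted p = 0.0705) without passing. Its difference between the overexpressing lines, Sir2OE2 minus Sir2OE1, passed (1.41, limma adjusted p = 0.0288). The list's median log2 ratios were 0.02, -0.06, -0.33 and -0.06 in Sir2OE1, Sir2OE2, Sir2KD1 and Sir2KD2. The part of other cell types in the Capn9 values was not tested.

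Of the classical calpains, Capn1, or mu-calpain, had recovered ratios of 37%, 80% and 153% in Sir2OE1, the last with the line in channel 1, and 95%, 57%, 153% and 117% in Sir2OE2, the last 2 with the line in channel 1. Its ratios were 115%, 64% and 122% in Sir2KD1, the last 2 with the line in channel 1, and 172%, 135%, 57% and 75% in Sir2KD2, again with the last 2 so placed. Turned and corrected for channel, the overexpression arrays ran from -1.37 to -0.01 and the knockdown arrays from -0.28 to 0.81. All 7 overexpression arrays were minus and 6 of 7 knockdown arrays plus, and the kinds overlapped through a single Sir2KD1 array. The share of all probes with such a split was not counted.

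In single lines Capn1 did not pass. Its log2 ratio was -0.77 ± 0.25 (SE, n = 3; limma adjusted p = 0.267) in Sir2OE1 and -0.43 ± 0.21 (SE, n = 4; limma adjusted p = 0.429) in Sir2OE2. It was 0.19 ± 0.25 (SE, n = 3; limma adjusted p = 0.791) in Sir2KD1 and 0.61 ± 0.21 (SE, n = 4; limma adjusted p = 0.225) in Sir2KD2. Overexpression minus knockdown was -0.999 ± 0.23, a 2-fold ratio, with a 95% interval of -1.51 to -0.49 and a limma adjusted p of 0.0479. Apart from Capn9, whose values chose the family, Capn1 was the 1 of 9 members that passed in this comparison, where 2.66% of all probes did, and nothing is read from that count.

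The Capn1 call stood just inside the threshold. Leaving out each of the 14 arrays in turn kept it in 2 fits and lost it in 12, with values from -1.13 to -0.85 and adjusted p from 0.038 to 0.126. It also rests on the same channel being on top in both kinds: with the knockdown ratios turned the value was -0.20 (limma adjusted p = 0.713). With the 4 line means as replicates its adjusted p was 0.573. The Capn1 direction, minus in overexpression and plus in knockdown, was the same as that of Capn9 in every line.

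Capn2, or m-calpain, stayed close to 0. Its corrected arrays ran from -0.42 to 0.01 in overexpression and from -0.23 to 0.09 in knockdown, nearly the same range. The fitted log2 ratios were -0.22 ± 0.13 (n = 3) in Sir2OE1, -0.23 ± 0.11 (n = 4) in Sir2OE2, -0.06 ± 0.13 (n = 3) in Sir2KD1 and -0.17 ± 0.11 (n = 4) in Sir2KD2, errors being SE. None passed, the lowest limma adjusted p being 0.429. Overexpression minus knockdown was -0.11 with a 95% interval of -0.38 to 0.17.

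The shared small subunit Capns1 was on the plus side on all 14 arrays, at like values in both kinds. Its log2 ratio was 0.23 ± 0.11 (n = 3) in Sir2OE1, 0.32 ± 0.09 (n = 4) in Sir2OE2, 0.34 ± 0.11 (n = 3) in Sir2KD1 and 0.28 ± 0.09 (n = 4) in Sir2KD2, errors being SE. None passed the threshold, with limma adjusted p of 0.562, 0.114, 0.13 and 0.2. Overexpression minus knockdown was -0.04 ± 0.10.

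Calpastatin, from Cast, passed in 1 line. Its Sir2KD1 arrays stood at 0.71, 0.81 and 0.47, and the fitted value was 0.66 ± 0.14 (SE, n = 3; limma adjusted p = 0.0286), plus on all 3 arrays. The 4 arrays of Sir2KD2 stood at 0.07, 0.13, -0.01 and 0.30, all below those of Sir2KD1, with a fitted value of 0.12 ± 0.12 (limma adjusted p = 0.723). The difference between the knockdown lines, Sir2KD2 minus Sir2KD1, was -0.54 ± 0.18 and did not pass (limma adjusted p = 0.26). Both overexpressing lines stayed near 0, at 0.08 and 0.17. The fourth measured relative, Capn15, an atypical calpain, lay between -0.14 and 0.30 and did not pass in any line. Capns2, Capn13 and Capn14 were not analysed here.

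**Figure D2:**
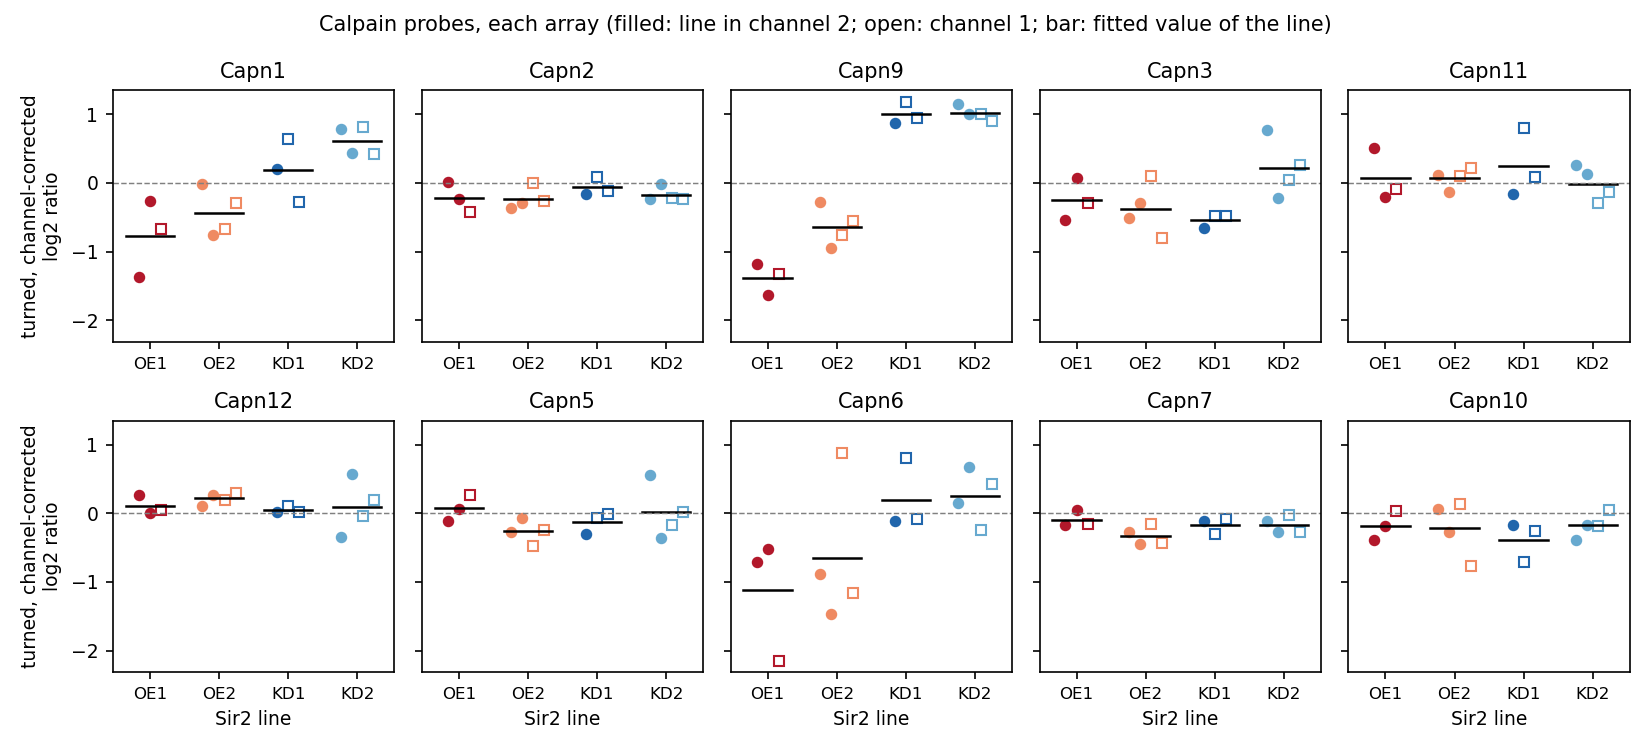
Turned log2 ratios after the channel term are plotted for the 10 calpain probes, 1 point per array and 1 colour per line. The overexpression and knockdown arrays of Capn9 do not overlap (-1.63 to -0.27 against 0.87 to 1.18), while those of the other 9 probes do. Capn9 was chosen by these ratios, and the share over all probes was not counted. Capn6 has the widest spread (-2.15 to 0.88 in overexpression).

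Tissue-restricted calpains other than Capn9 did not pass in any line. Capn3, the muscle calpain, was minus on all 3 Sir2KD1 arrays at -0.66, -0.48 and -0.48, and stood at 0.77, -0.23, 0.05 and 0.26 in Sir2KD2. The fitted values were -0.54 ± 0.22 (limma adjusted p = 0.241) and 0.22 ± 0.19 (limma adjusted p = 0.684), errors being SE. The knockdown lines differed by 0.76 ± 0.29, with a 95% interval of 0.12 to 1.40, but this did not pass over all probes (limma adjusted p = 0.322). Both overexpressing lines were minus, at -0.26 ± 0.22 and -0.37 ± 0.19.

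Capn11, a calpain of the testis, lay between -0.01 and 0.24 in the 4 lines, and plus and minus arrays were mixed in each. Capn12, a calpain described in skin, was plus on all 7 overexpression arrays and on 5 of 7 knockdown arrays. Its fitted ratios were small, 0.11 ± 0.16 in Sir2OE1, 0.22 ± 0.14 in Sir2OE2, 0.05 ± 0.16 in Sir2KD1 and 0.09 ± 0.14 in Sir2KD2 (SE). Markers of skeletal muscle, the tissue of Capn3, passed for 0 of 8 genes in every line. Over all probes 1.06%, 2.81%, 3.59% and 1.34% passed in Sir2OE1, Sir2OE2, Sir2KD1 and Sir2KD2. At an unadjusted p under 0.05 in limma there were 2 of the 8 in Sir2KD1, against 3897 of 23230 probes, and 0 in the other 3 lines.

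Among the calpains that lack the classical calcium-binding end, Capn6, which has lost the active-site cysteine, varied most. Its Sir2OE1 arrays stood at -0.70, -0.52 and -2.15 and its Sir2OE2 arrays at -0.88, -1.46, 0.88 and -1.17. The knockdown arrays ran from -0.24 to 0.80. Slide 3 of Sir2OE1 and slide 3 of Sir2OE2, both with the line in channel 1, lay furthest apart, with recovered ratios of 318% and 39%.

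The fitted Capn6 log2 ratio was -1.12 ± 0.45 (SE, n = 3; limma adjusted p = 0.438) in Sir2OE1 and -0.66 ± 0.38 (SE, n = 4; limma adjusted p = 0.541) in Sir2OE2. Without slide 3 of Sir2OE1 the first became -0.10, and without slide 3 of Sir2OE2 the second became -1.30. The knockdown lines were at 0.20 ± 0.45 and 0.25 ± 0.38 (SE). Overexpression minus knockdown was -1.12 ± 0.42 with a 95% interval of -2.05 to -0.19, and did not pass over all probes (limma adjusted p = 0.245). The Capn6 difference was thus near that of Capn1 in size, with a larger error.

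Capn10, linked to type 2 diabetes and to secretion in beta cells, did not pass in any line. Its arrays in Sir2OE1 stood at -0.39, -0.18 and 0.03 and in Sir2OE2 at 0.06, -0.27, 0.13 and -0.76. In Sir2KD1 they stood at -0.17, -0.71 and -0.26 and in Sir2KD2 at -0.39, -0.17, -0.19 and 0.05. The kinds overlapped throughout. All 4 fitted values were minus, from -0.38 ± 0.19 in Sir2KD1 (limma adjusted p = 0.367) to -0.17 ± 0.16 in Sir2KD2 (limma adjusted p = 0.715). Overexpression minus knockdown was 0.08, with a 95% interval of -0.32 to 0.48.

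Capn7, an atypical calpain with endosomal partners, had the smallest errors of the set. It was minus on 6 of 7 overexpression arrays and on 7 of 7 knockdown arrays. The fitted ratios were -0.10 ± 0.12 in Sir2OE1, -0.33 ± 0.10 in Sir2OE2 (limma adjusted p = 0.16), -0.17 ± 0.12 in Sir2KD1 and -0.17 ± 0.10 in Sir2KD2 (SE). Capn5, a relative of Capn6 that keeps its active site, lay between -0.27 and 0.07 and did not pass in any line.

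**Figure D3:**
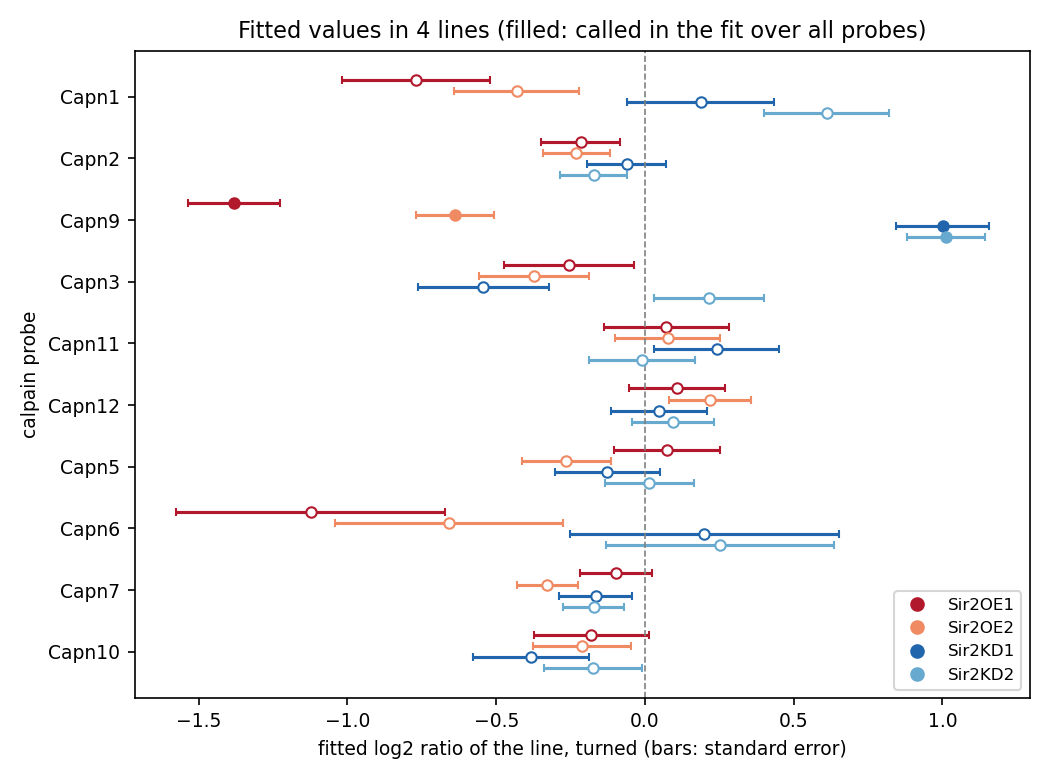
Fitted turned log2 ratios of the 10 calpain probes are plotted for the 4 lines, with bars for the standard error and filled points where the probe passed the threshold. The filled points are those of Capn9 (-1.38, -0.64, 1.00 and 1.01), and the Capn1 points (-0.77, -0.43, 0.19 and 0.61) follow the same sides.

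Over the 10 probes, 3 were plus and 7 minus in Sir2OE1, 2 plus and 8 minus in Sir2OE2, 5 and 5 in Sir2KD1, and 6 plus and 4 minus in Sir2KD2. The family's median log2 ratio was -0.20 in Sir2OE1, -0.30 in Sir2OE2, -0.01 in Sir2KD1 and 0.05 in Sir2KD2. Over all probes the median fitted ratio was -0.002, -0.004, 0.024 and -0.003 in the same order of lines. Among the 9 probes other than Capn9 the range was -1.12 to 0.11, -0.66 to 0.22, -0.54 to 0.24 and -0.17 to 0.61 in the same order of lines. At an unadjusted p under 0.05 in limma, 3, 2, 2 and 2 of the 10 stood out, against 2232, 3068, 3897 and 3102 of 23230 probes.

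No member passed in a comparison of lines of the same kind. Between Sir2OE2 and Sir2OE1 0 of 10 passed in limma and 1 had an unadjusted p under 0.05, where 0.323% of all probes passed. Between Sir2KD2 and Sir2KD1 0 of 10 passed and 1 (Capn3) had an unadjusted p under 0.05, where 0.689% of all probes passed. Intervals were wide for some members: for Capn6 the overexpressing lines could differ by anything from -0.85 to 1.78.

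**Figure D4:**
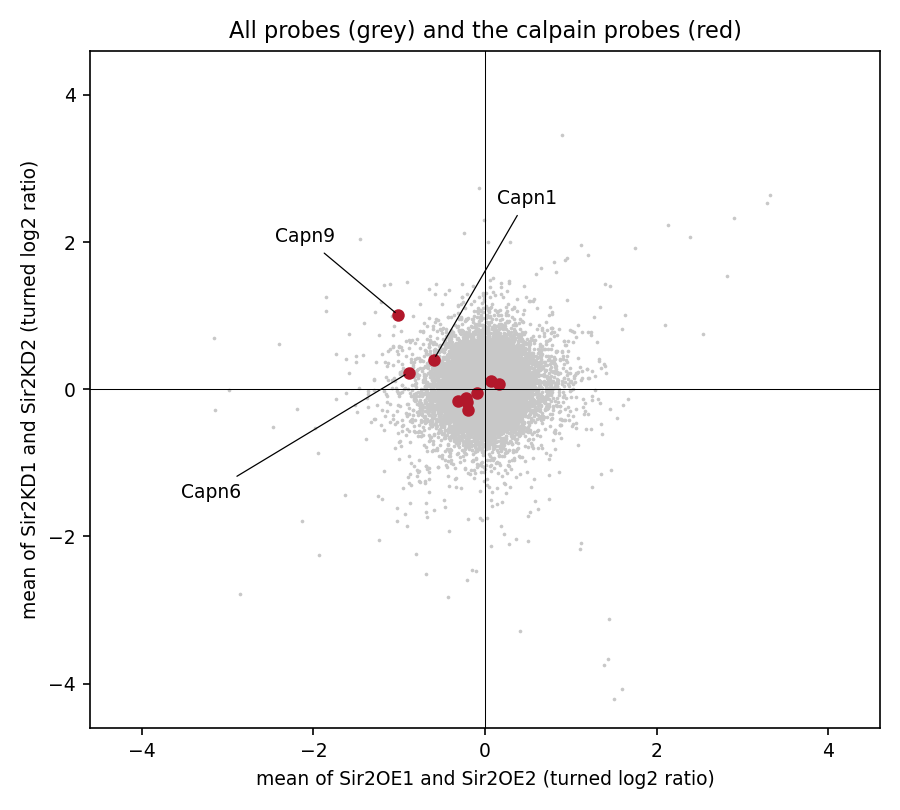
The mean turned log2 ratio of the overexpressing lines (horizontal) is plotted against that of the knockdown lines (vertical) for all probes in grey and the 10 calpains in red. Capn9 lies in the upper left, Capn1 (-0.60, 0.40) and Capn6 are nearer the middle on that side, and the other 7 calpains lie between -0.31 and 0.16 horizontally and between -0.28 and 0.12 vertically.

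Known calpain substrates, the proteins that these enzymes cut, were a list of 36 genes, of which 33 were measured by 35 probes. In Sir2OE1 0 probes passed, against 1.06% of all probes, and in Sir2KD2 0 passed, against 1.34%. In Sir2OE2 2 passed, against 2.81%, and in Sir2KD1 2 passed, against 3.59%. At an unadjusted p under 0.05 in limma there were 4, 8, 7 and 7 in Sir2OE1, Sir2OE2, Sir2KD1 and Sir2KD2. Over all probes there were 2232, 3068, 3897 and 3102 of 23230 in the same order of lines.

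Gsn, which encodes the actin-severing protein gelsolin, passed on the minus side in Sir2OE2 (-1.89) and Sir2KD1 (-1.51). Marcks, an actin-binding substrate of protein kinase C, passed on the plus side in Sir2OE2 (0.47), and Lmna, for the nuclear lamins A and C, on the plus side in Sir2KD1 (1.36). Between the kinds 1 of the 35 probes passed, against 2.66% of all probes: Mapt, for the microtubule protein tau (0.52, overexpression minus knockdown). In that comparison 11 of the 35 had an unadjusted p under 0.05 in limma, against 3350 of all 23230. The comparison rests on the same channel being on top in both kinds, and with the line as the replicate 0 of all probes passed. The list's medians were 0.03, 0.16, -0.04 and 0.07 in Sir2OE1, Sir2OE2, Sir2KD1 and Sir2KD2.

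The list held 3 proteins of the membrane fusion that releases insulin granules, and none passed in any line (limma adjusted p from 0.494 to 0.989). Snap25 had log2 ratios of 0.18, 0.16, -0.15 and -0.13 in the 4 lines in that order, and Stx1a, its partner at the plasma membrane, had 0.06, 0.25, -0.29 and -0.30. Vamp2, on the granule, had 0.02, 0.11, 0.09 and 0.18.

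Of 14 cathepsins, the lysosomal proteases, 0 passed in Sir2OE1 and 0 in Sir2OE2, against 1.06% and 2.81% of all probes, with 1 and 3 at an unadjusted p under 0.05 in limma. In Sir2KD1 1 passed, against 3.59%: Ctsa, on the minus side (-0.68), which also passed between the kinds (0.70, overexpression minus knockdown). In Sir2KD2 1 passed, against 1.34%: Ctsg, on the minus side (-2.49), which stood at 0.96 in Sir2KD1. Of 8 measured caspases, the proteases of cell death and inflammation, 0 passed in any line, with 1, 2, 0 and 1 at an unadjusted p under 0.05. Over all probes 2232, 3068, 3897 and 3102 of 23230 had such a p in limma. Casp4 passed between the kinds (-0.51), where 2.66% of all probes did. The calls of Ctsa and Casp4 between the kinds rest on the same channel being on top in both. With the line as the replicate 0 of all probes passed there.

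Some cell identity genes moved beside these values. Of 7 measured beta-cell genes 2 passed in each line, against 1.06%, 2.81%, 3.59% and 1.34% of all probes in Sir2OE1, Sir2OE2, Sir2KD1 and Sir2KD2. Among the 7, Iapp (-0.21, -0.41, 0.07 and 0.04) and Chga (-0.21, -0.41, 0.06 and 0.04) had nearly the same ratios in every line. They may not be separate measurements, and neither passed. Slc2a2, which encodes the glucose transporter GLUT2, passed on the minus side in all 4 lines (-0.90, -1.50, -2.08 and -0.89). Pcsk1, a prohormone convertase that processes insulin, passed on the plus side in Sir2OE1 (0.78), Sir2OE2 (0.78) and Sir2KD2 (0.76). Pdx1, a transcription factor of beta cells, passed on the minus side in Sir2KD1 (-0.77).

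Of 8 exocrine and duct genes 1 passed in Sir2OE1, 1 in Sir2OE2, 3 in Sir2KD1 and 1 in Sir2KD2. Over all probes 1.06%, 2.81%, 3.59% and 1.34% passed in the same order of lines. The duct keratin Krt19 passed as minus in Sir2OE1 (-0.58) and Sir2OE2 (-0.69), and the duct keratin Krt7 as plus in Sir2KD1 (0.93) and Sir2KD2 (1.29). Both lay on the side of Capn9 in those lines. Where they did not pass, Krt7 was at -0.12 in Sir2OE1 and 0.24 in Sir2OE2, and Krt19 at 0.04 in Sir2KD1 and -0.30 in Sir2KD2. Sox9, of the same list, lay opposite to Capn9 in all 4 lines (0.24, 0.38, -0.11 and -0.15) and passed in none. The digestive enzyme genes Cpb1 (-1.44) and Prss1 (-0.75) passed as minus in Sir2KD1, opposite to Capn9 there. Of 5 other islet hormone and endocrine genes and 7 mesenchymal genes, 0 passed in any line, with at most 2 and 1 at an unadjusted p under 0.05 in limma. From 2232 to 3897 of 23230 probes had such a p in single lines. The part of these cell identity genes in the calpain values was not tested.

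The genes whose probes resembled Capn9 most across the 14 corrected arrays were ranked by Pearson's r, as a description over arrays that share control RNA. Here r takes in the gap between the kinds, which rests on the same channel being on top in both. Crip1, a small LIM-domain protein, had r = 0.982 and log2 ratios of -1.23, -0.60, 0.53 and 0.39 in Sir2OE1, Sir2OE2, Sir2KD1 and Sir2KD2. Car15, a carbonic anhydrase, had r = 0.973 with -2.17, -1.54, 1.34 and 1.16, passing in all 4 lines as Capn9 did. Gstm2, a glutathione transferase, had r = 0.965 and S100a1, a calcium-binding protein, r = 0.964. Ucn3, a peptide of mature beta cells, had r = 0.979 from 1 probe, though that probe was plus in Sir2OE2 (0.56), where Capn9 was minus. Its other probe had r = -0.67, so the gene's place is uncertain.

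At the opposite end stood Rgs3 (r = -0.978), Nup93 (-0.974), C2cd4b (-0.971), 2610016A17Rik (-0.969) and Lysmd2 (-0.968). Rgs3, a regulator of G-protein signalling, also had a second probe that did not follow (r = 0.29). In Sir2OE2, where Capn9 was minus, Rgs3 (-0.615, from its first probe) and Lysmd2 (-0.50) passed as minus too. The others of this end were plus there. Nup93, of the nuclear pore, had log2 ratios of 0.81, 0.30, -0.79 and -0.75. Among the calpains r with Capn9 was 0.827 for Capn1 and 0.644 for Capn6, and lay between -0.20 and 0.32 for the other 7.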

How the data were processed

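RNA of 4 MIN6 lines was compared with control RNA on 14 two-colour arrays. The values deposited by the authors were log2 ratios of the channels. Nothing in the sources states the array software, background correction, normalization or direction. Within each kind the values of a probe summed to 0 over 6 of 7 arrays; undoing this gave whole-number percent ratios (relative tolerance 1e-05) for all but 1 overexpression probe. Without intensities, the number of arrays limits the precision.

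Probes were named by the platform annotation of 2007, with 16205 symbols updated through Entrez identifiers; 6204 probes were not listed there and 143 had several symbols. The sign was turned where a line was in channel 1. Probes measured on 2 or more arrays of each line, 23230 in all, entered limma's lmFit and eBayes (limma 3.58.1, R 4.3.3), with a coefficient per line and a channel term per kind, checked on simulated data. The ratio against 0 is the test and leaves out the spread of the controls. P-values were adjusted by the Benjamini-Hochberg method over all probes at 0.05.

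Alternatives changed the channel term, scaling, probe filter, shrinkage, slide block, turn, unit of replication and arrays; 1, without the channel term on ratios with centring undone, was chosen after seeing the data. The members and gene lists were chosen with earlier results of these data known. Genes named were all members and partners, list genes that passed, and the 5 most like and 5 least like Capn9. Snap25, Vamp2, Stx1a, Iapp, Chga and Sox9 were added after their values were seen. Whether slide numbers paired arrays could not be told.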

Additional observations from a re-analysis of the deposited data

Results flagged for a closer look

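Capn9 differed between the kinds of perturbation, at -2.02 ± 0.14 (log2, overexpression minus knockdown), with all 7 overexpression arrays minus and all 7 knockdown arrays plus. This is a description, since Capn9 was in view when the family was picked. Capn1 only just passed in the same direction, at -0.999 ± 0.23 (limma adjusted p = 0.0479), with 7 of 7 overexpression arrays minus and 6 of 7 knockdown arrays plus. Leaving out each array in turn lost the Capn1 call in 12 of 14 fits. With the knockdown ratios turned its value was -0.20. The share of all probes whose arrays split in these ways was not counted. The arrays of a kind came from 2 lines that shared their control RNA. Capn2 had 1 Sir2KD2 array, slide 2, at -0.01, apart from the other 3 at -0.23 to -0.22. Its gap made up 0.948 of the range of the 4 arrays. Chance sets apart about 1 in 20 such groups, and 20 groups of 4 were looked at.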

How the results depend on the processing

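The count of members that passed was 1 in each line. In Sir2OE1 it ranged from 0 to 1 when each array was left out in turn, and was 0 without slide 3 of that line. In Sir2OE2 it ranged from 0 to 1 over the arrays left out, and was 0 with each kind fitted alone. For overexpression minus knockdown it fell from 2 to 1, losing Capn1, with array medians subtracted, with robust shrinkage, and with the replicate block of slide numbers. It was 0 with the knockdown ratios turned and 0 with the line as the replicate, where 0 of all probes passed in limma and 1822 had an unadjusted p under 0.05. Leaving out arrays gave 1 to 2, and without slide 3 of Sir2OE2 the 2 were Capn6 and Capn9. The cause of these changes was not tested.

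Arrays of a kind with the same slide number correlated at -0.389 to 0.237 in what the line and channel terms left over. Those with different numbers correlated at -0.538 to 0.498, and the block's correlation was -0.059. With so few arrays and these terms fitted, the correlations cannot tell whether slide numbers paired arrays. Without any turn, Capn9 in Sir2OE2 minus Sir2OE1 was 0.21, and 0 members differed between lines of a kind. Of 1780 alternative values of single members, 1755 moved by less than the spread between arrays, 25 by more, and no called value changed sign. Many could not move, because some settings changed only the error, the probe filter or the gene names. Leaving out an array of 1 kind also left the line values of the other kind as they were. The Capn9 difference between the kinds kept its sign only as -0.003 with the knockdown ratios turned. Capn9 ranged over all alternatives from -1.48 to -1.26 in Sir2OE1, -0.79 to -0.51 in Sir2OE2, 0.86 to 1.13 in Sir2KD1 and 0.96 to 1.06 in Sir2KD2.

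Counts over all probes moved more. Without the channel term 628, 1190, 1867 and 810 probes passed in Sir2OE1, Sir2OE2, Sir2KD1 and Sir2KD2, against 247, 653, 833 and 312. With the centring undone as well, 135, 349, 373 and 159 passed. With each kind fitted alone 104, 459, 219 and 65 passed. With 1 channel term for both kinds 406, 934, 1315 and 541 passed. Scaling the arrays gave 1015 in Sir2OE2 and 402 in Sir2KD1. Leaving out arrays gave as few as 47 in Sir2OE1, 317 in Sir2OE2, 523 in Sir2KD1 and 149 in Sir2KD2. For overexpression minus knockdown 617 became 1317 without the channel term, 329 with the centring undone as well, and 1160 with the knockdown ratios turned.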
